A study of Mus musculus with 10 samples.

Results

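Leukocyte integrins and the hyaluronan receptor Cd44 were followed in bone-marrow-derived macrophages of mice with a human WDFY3 knock-in. The 10 genes are Itga4, Itga5, Itga6, Itgal, Itgam, Itgax, Itgb1, Itgb2, Itgb7 and Cd44, out of 54307 genes in the count table. All 10 symbols matched an Ensembl gene, and all 10 passed the low-count filter, as did 12411 genes in all. Itga4 and Cd44 were chosen by their measured RNA difference between the genotypes in these same libraries, so their genotype difference is given as a description without a test. The other 8 are named for their place in the family. RNA came from 5 hWDFY3KI/KI mice, labelled as overexpressing human WDFY3, and from 5 wild-type control mice. All were males aged 6 to 8 weeks. Marrow was grown in medium with 20% L-929 fibroblast conditioned medium and 10% serum and harvested at day 7, and poly(A)+ RNA was sequenced. The promoter that drives the knock-in is not given in the labels.

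Integrins are surface receptors made of an α and a β chain, and the pair decides what the cell binds. The β2 chain (Itgb2, CD18) pairs with αL (Itgal, LFA-1), αM (Itgam, Mac-1, the classical macrophage marker CD11b) and αX (Itgax, CD11c), which bind ICAMs and the complement fragment iC3b. The β1 chain (Itgb1) pairs with α4 (Itga4, VLA-4), α5 (Itga5, the fibronectin receptor) and α6 (Itga6, a laminin receptor). α4 also pairs with β7 (Itgb7) in the gut-homing receptor for MAdCAM-1. Cd44 is not an integrin. It binds hyaluronan and works beside α4β1 when leukocytes roll and arrest on vessel walls.

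The libraries held 15.2 M to 22.9 M estimated counts in the knock-in group and 14.6 M to 36.4 M in the controls. Levels are CPM, the counts per M reads of TMM-scaled library size, given as mean ± SD over 5 libraries, and fold changes are edgeR's fitted log2 values ± SE, knock-in minus control. Libraries carry the replicate number of the labels. Macrophage markers were high in every library, at 30800.2 to 37528 summed CPM over 10 of 10 genes in the knock-in group and 24458 to 35004 in the controls. Over all 12411 tested genes, 10 (0.0806%) passed an adjusted p of 0.05. Mouse Wdfy3 was at 119.7 ± 6.19 CPM in the knock-in and 109.8 ± 9.82 CPM in the control macrophages (adjusted p = 0.811). Knock-in 4, control 1 and control 4 stood apart, with 92.6, 157 and 157 summed CPM of 12 stromal markers, against 2.58 to 23.0 in the other knock-in and 5.87 to 11.6 in the other control libraries.

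The 4 upstream sequences below belong to the genes the results turn on, the pair with the genotype shift (Itga4, Cd44) and the αM and αX genes, which are neighbours on chromosome 7. Each holds the 250 bases before the RefSeq gene start in GRCm38.p6, read along the gene's strand. They lie at chr2:79255176-79255425 (plus strand), chr2:102901666-102901915 (minus strand), chr7:128062390-128062639 (plus strand) and chr7:128129300-128129549 (plus strand). All motifs were searched on both strands. Capitals mark GAGGAA, the core recognised by the myeloid ETS factor PU.1, and TGANTCA, the AP-1 site.
Itga4: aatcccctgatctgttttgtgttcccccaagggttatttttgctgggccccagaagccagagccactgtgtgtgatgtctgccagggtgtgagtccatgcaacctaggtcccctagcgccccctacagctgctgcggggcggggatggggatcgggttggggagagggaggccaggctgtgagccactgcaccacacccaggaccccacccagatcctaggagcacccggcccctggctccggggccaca
Cd44: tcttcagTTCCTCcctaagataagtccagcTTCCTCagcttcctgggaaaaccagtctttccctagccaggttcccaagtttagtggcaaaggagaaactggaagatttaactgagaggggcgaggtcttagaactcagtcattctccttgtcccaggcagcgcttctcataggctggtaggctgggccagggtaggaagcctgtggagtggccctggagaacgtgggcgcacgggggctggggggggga
Itgam: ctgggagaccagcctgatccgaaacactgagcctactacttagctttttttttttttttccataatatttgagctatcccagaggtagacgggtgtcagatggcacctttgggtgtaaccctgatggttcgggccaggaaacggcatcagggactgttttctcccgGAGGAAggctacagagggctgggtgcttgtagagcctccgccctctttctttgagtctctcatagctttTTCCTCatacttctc
Itgax: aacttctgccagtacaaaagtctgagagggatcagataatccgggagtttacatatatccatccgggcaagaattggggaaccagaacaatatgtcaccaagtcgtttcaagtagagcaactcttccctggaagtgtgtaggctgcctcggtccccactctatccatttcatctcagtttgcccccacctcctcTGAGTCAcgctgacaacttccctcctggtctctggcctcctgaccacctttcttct

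GAGGAA was found 2 times upstream of Cd44 and 2 times upstream of Itgam, and 0 times upstream of Itga4 and Itgax. Of all 32851 such windows, 23.3% hold it. TGANTCA was found once upstream of Itgax, starting at position -56, and in 6.75% of all windows. GGGCGG, the Sp1 box, was found once upstream of Itga4 and once upstream of Itgam, and 32.7% of all windows hold it. No marked letters overlap each other. Itga4 had a GC content of 64.0% in this window and Cd44 56.4%, where the median window has 52.4%. RefSeq windows were matched for 7 of the 10 genes.

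Itga4 (ENSMUSG00000027009) spans 79255426 to 79333123 on the plus strand of chromosome 2 in GRCm38, and Cd44 (ENSMUSG00000005087) spans 102811141 to 102901665 on the minus strand of the same chromosome, 23.5 Mb away. Itgal, Itgam and Itgax lie on the plus strand of chromosome 7, with 11.06 kb between the end of Itgam and the start of Itgax. Exons of Itga4 overlap those of Cerkl on the opposite strand, and exons of Itgam overlap the coding gene Gm49368 on the same strand. The labels do not state if strand was considered in counting, so a part of the reads of Itga4 cannot be placed with certainty. The same holds for Itgam, where strand could not separate its reads from those of Gm49368. Cerkl averaged 33.6 and Gm49368 147 counts per library, where Itga4 had at least 1776 and Itgam at least 19471.

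Per length, the β2 chain and its αM and αX partners led the family in both genotypes. Itgb2 was at 764 CPM per kb of coding transcript in the knock-in and 773 in the control macrophages. Itgam followed at 287 and 331 CPM per kb, Itgax at 198 and 157, and Itgb1 at 153 and 147, in knock-in and control macrophages in that order. Cd44 came next at 73.2 and 62.4 CPM per kb. Itga6 (25.4 and 28.1), Itga5 (24.9 and 24.4) and Itga4 (14.1 and 11.3) formed a lower tier, in knock-in and control macrophages again. Itgal, at 6.39 and 8.93 CPM per kb, and Itgb7, at 2.51 and 2.07, were lowest.

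In the knock-in libraries the ranges of neighbours in this order overlapped for Itgam and Itgax, for Itgax and Itgb1 and for Itga6 and Itga5, and not for the other neighbours. In the controls they overlapped for Itgax and Itgb1, Itga6 and Itga5, and Itga4 and Itgal. The order was the same with the length of all annotated exons, except that Itga5 and Itga6 changed places. Among 26 integrin subunit genes, 18 passed the low-count filter, and the 9 integrins followed here carried 92.4% of the family's summed CPM per kb. Of the other subunits, Itgb5 (94.8 CPM per kb in knock-in, 96.7 in control macrophages) and Itgav (14 and 14.1), which together form a vitronectin receptor, were the most abundant.

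**Figure D1:**
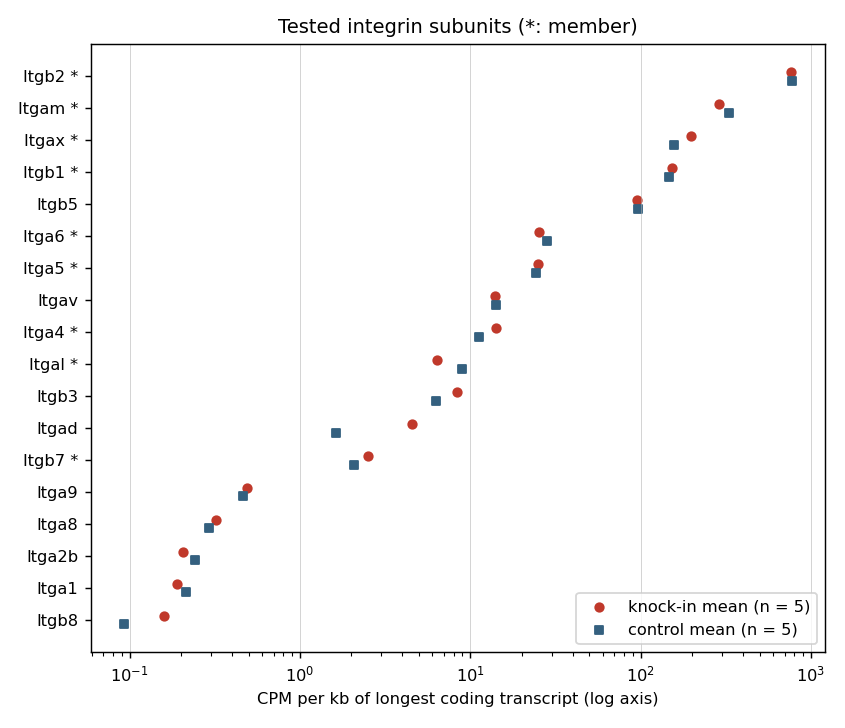
Mean CPM per kb of the longest coding transcript (log axis) for the 18 tested integrin subunits, with knock-in means as circles and control means as squares (n = 5 each). Itgb2 leads at 764 and 773 CPM per kb, and the asterisks mark the 9 integrins described here.

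Itga4 RNA, for the α4 chain of VLA-4, was higher in the knock-in macrophages, which is why it was chosen. It was at 136, 139.6, 144, 121 and 148 CPM in knock-in 1 to 5 and at 104, 115, 116, 99.4 and 115 CPM in control 1 to 5. The lowest knock-in library, number 4, lay above the highest control, number 3, so the groups did not overlap. The means were 138 ± 10.4 CPM in the knock-in and 110.0 ± 7.67 CPM in the control macrophages, a fitted fold of 1.25 (log2 0.32 ± 0.067). These values rest on 2147 to 3304 counts per knock-in library and 1776 to 3505 per control library.

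Cd44 RNA, the hyaluronan receptor, was the other gene picked for its shift, and it varied least of all 10 among the knock-in libraries (coefficient of variation 2.06%). It was at 419, 414, 407, 398 and 416 CPM in knock-in 1 to 5 and at 353, 327, 335, 373 and 365 CPM in control 1 to 5. All knock-in libraries lay above all controls. The means were 411 ± 8.45 CPM in the knock-in and 350.5 ± 19.3 CPM in the control macrophages, a fitted fold of 1.17 (log2 0.23 ± 0.051). Of all tested genes, 0.733% lay higher in every knock-in than in every control library. This share is background to the choice of Itga4 and Cd44 and says nothing more about them.

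The deposited regularized-log values come from the same libraries in which both genes were picked, so they describe the choice and add no support. Both genes kept the groups apart in these values too. Itga4 ran from 11.29 to 11.48 in the knock-in and from 11.10 to 11.24 in the control libraries on that log2 scale, and Cd44 from 12.97 to 13.01 and from 12.77 to 12.91. Lymphocytes also carry α4 and Cd44 at their surface. The T cell markers Cd3e and Trac were at or near 0, with at most 0.191 and 0.175 CPM in the knock-in and 0.195 and 0.113 CPM in the control libraries. The T cell list as a whole (8 of 8 genes) summed to 21.8 to 48.8 CPM in the knock-in and 27.6 to 42.8 CPM in the controls, nearly all of it Cd4.

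**Figure D2:**
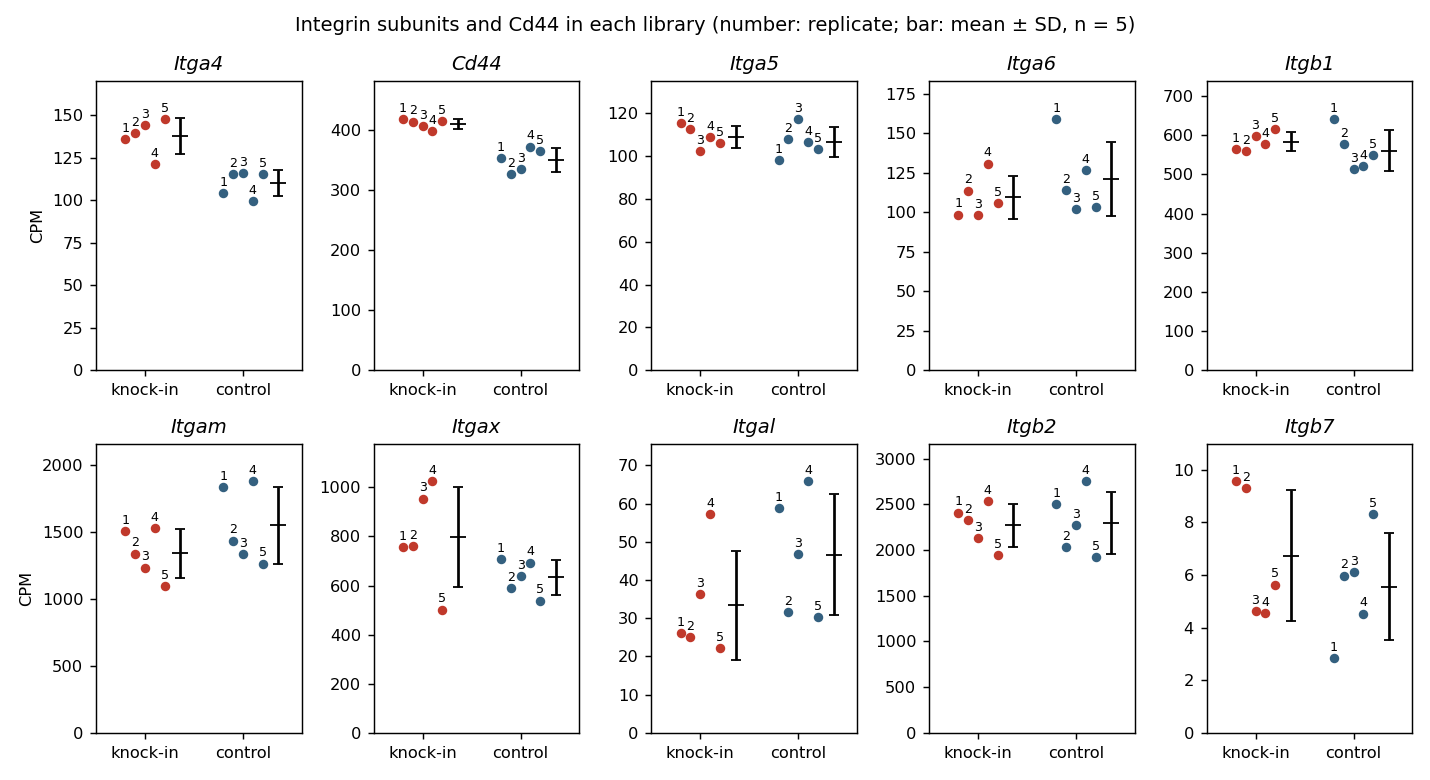
CPM of each gene in every library (linear axes from 0), knock-in left and control right, with replicate numbers and the mean ± SD (n = 5) as bars. Itga4 and Cd44 separate the groups, at 121 to 148 against 99.4 to 116 CPM and 398 to 419 against 327 to 373 CPM, while the other 8 genes overlap.

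None of the 8 other genes passed the test, and their groups overlapped in every case, where 1.32% of all tested genes kept the groups apart in either direction. edgeR's quasi-likelihood test called 0 of 8 at an adjusted p of 0.05 and gave 0 an unadjusted p under 0.05, which 6.21% of all tested genes had. DESeq2 also called 0, with 1 unadjusted p under 0.05, and limma-voom called 0 with 0. Over all genes they tested, 902 of 24020 had an unadjusted p under 0.05 in DESeq2, and 862 of 12411 in limma-voom. They called 48 and 12 genes over the whole table. Of these 8 genes, 4 had a positive fold change, with a median log2 of 0.007, against 48.3% positive and a median of -0.005 over all tested genes. A genotype difference was thus not detectable for these 8 genes with 5 against 5 libraries.

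Itgb1, the β chain that α4, α5 and α6 share, was at 583 ± 23.8 CPM in the knock-in and 561 ± 52.2 CPM in the control macrophages (log2 0.06 ± 0.066, edgeR adjusted p = 0.904). Its interval of 2 SE ran from -0.07 to 0.19 in log2. Control 1, at 642 CPM, was higher than every knock-in library, and control 3 was the lowest at 513 CPM.

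Itga5, the α chain of the fibronectin receptor, was at 109 ± 5.15 CPM in the knock-in and 107 ± 7.15 CPM in the control macrophages (log2 0.03 ± 0.058, edgeR adjusted p = 0.941). Its interval ran from -0.08 to 0.15. Itga6, the laminin receptor chain, was at 98.4, 114, 98.2, 131 and 106 CPM in knock-in 1 to 5 and at 159, 114, 102, 127 and 103 CPM in control 1 to 5. Knock-in 4 and controls 1 and 4, the libraries with the most stromal RNA, were the highest of their groups. Its log2 fold change was -0.15 ± 0.13 (edgeR adjusted p = 0.876), -0.028 without control 1 and -0.035 without those 3 libraries. The part of stromal RNA in the difference was not tested.

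Itgb2, the β2 chain, was nearly level, at 2269 ± 232 CPM in the knock-in and 2296 ± 338 CPM in the control macrophages (log2 -0.02 ± 0.10, edgeR adjusted p = 0.986). Its interval of 2 SE ran from -0.22 to 0.18. It was at 2410.2, 2326, 2132, 2531 and 1945 CPM in knock-in 1 to 5 and at 2500, 2032, 2275, 2750.0 and 1925 CPM in control 1 to 5. The spread within each genotype was wider than the difference of the means. The sign turned when 1 of 4 libraries was left out, with a log2 value of 0.017 without control 1, 0.058 without control 4, 0.003 without knock-in 3 and 0.033 without knock-in 5.

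Itgam, the αM chain of Mac-1, was at 1507, 1339, 1234, 1532 and 1098 CPM in knock-in 1 to 5 and at 1837, 1438, 1338, 1879 and 1266 CPM in control 1 to 5. Controls 1 and 4 were the highest of all 10 libraries, and knock-in 5 was the lowest. The log2 fold change was -0.21 ± 0.13 (edgeR adjusted p = 0.841), with means of 1342 ± 183 CPM in the knock-in and 1551 ± 287 CPM in the control macrophages. It was -0.14 without control 1, -0.13 without control 4, and -0.06 when all 3 stroma-rich libraries were dropped. In bulk RNA, fewer cells of a type and less RNA per cell cannot be told apart.

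Itgax, the αX chain (CD11c), was at 755, 761, 954, 1024 and 502 CPM in knock-in 1 to 5 and at 707, 590.3, 638, 694 and 539 CPM in control 1 to 5. Knock-in 1 to 4 lay above every control and knock-in 5 below every control. The log2 fold change was 0.34 ± 0.17, the highest fitted value among the 10 genes, and it did not pass (edgeR adjusted p = 0.81). It was 0.46 without knock-in 5 (adjusted p = 0.55) and 0.23 without knock-in 4 (adjusted p = 0.75). Its coefficient of variation was 25.5% in the knock-in and 11.1% in the control libraries.

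Itgal, the αL chain of LFA-1, was at 26.2, 25.0, 36.3, 57.2 and 22.2 CPM in knock-in 1 to 5 and at 58.8, 31.7, 46.7, 65.8 and 30.3 CPM in control 1 to 5. Knock-in 4 stood among the higher controls, while knock-in 1, 2 and 5 lay below all controls. The log2 fold change was -0.49 ± 0.33 (edgeR adjusted p = 0.849), with an interval from -1.14 to 0.17. It was -0.77 without knock-in 4 and -0.32 without control 4.

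Itgb7, the other β partner of α4, had the fewest reads of the 10 genes, with 58 to 196 counts per library. It was at 9.56, 9.30, 4.63, 4.56 and 5.64 CPM in knock-in 1 to 5 and at 2.84, 5.98, 6.12, 4.54 and 8.32 CPM in control 1 to 5. The log2 fold change of 0.28 ± 0.30 did not pass (edgeR adjusted p = 0.899). It was 0.12 without knock-in 1 or without control 1, 0.14 without knock-in 2 and 0.47 without control 5. Per length, Itgb7 came to 1.66 ± 0.668% of Itgb1 in the knock-in and 1.44 ± 0.563% in the control libraries.

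**Figure D3:**
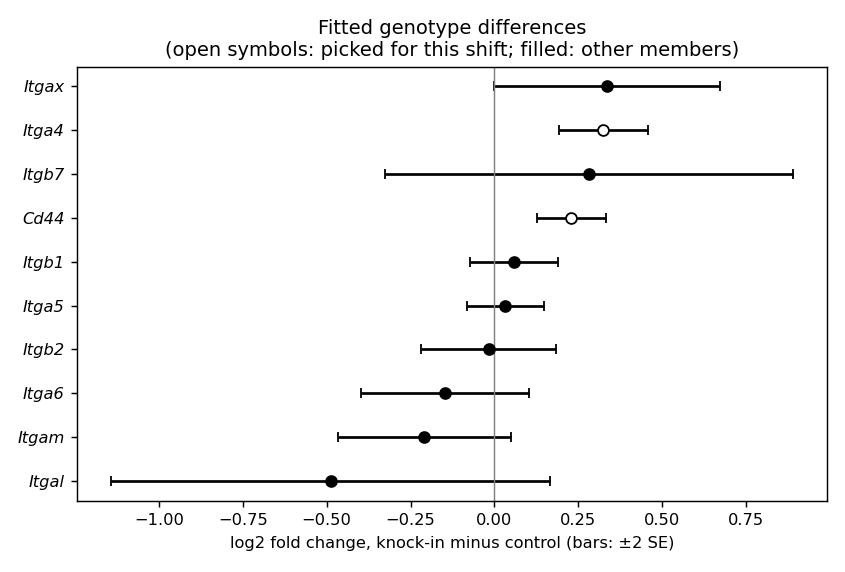
Fitted log2 fold change of knock-in minus control for the 10 genes, with bars of ±2 SE. Itga4 (0.32) and Cd44 (0.23) are drawn open because they were picked for this shift, the bars of the other 8 genes cross 0, and those of Itgal (-0.49) and Itgb7 (0.28) are the widest.

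The β2 integrins and Itga4 moved in opposite directions between libraries of the same genotype. With each genotype's mean removed, the log2 CPM of Itgam had a Pearson r of 0.921 with Itgb2 and -0.892 with Itga4 over 10 libraries, given as a description. The pattern was not limited to β2 genes, since Itga6 had an r of 0.71 with Itgam and -0.728 with Itga4. Itgam, Itgb2 and Itgal were each highest in knock-in 4 among the knock-in libraries, and in control 4 followed by control 1 among the controls. Itga4 was lowest in these same 3 libraries. At the other end, knock-in 5 had the lowest Itgam, Itgb2, Itgal and Itgax and the highest Itga4 of its genotype.

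The neutrophil marker sum, like the stromal one, was highest in the same 3 libraries within their genotypes. Eosinophil markers were also highest there, at 22.8 CPM in knock-in 4, 23.3 in control 1 and 27.3 in control 4. So were dendritic cell markers, at 5.64, 2.11 and 3.88 CPM in that order. Siglecf made up most of the eosinophil sum, at 18.8, 20.7 and 23.4 CPM in these libraries, and Epx was at most 0.512 CPM in any library. Some other lists did not share that order. T cell markers were highest in knock-in 4 (48.8 CPM) but, among the controls, in control 5 (42.8 CPM). Endothelial markers were highest in knock-in 5 (21.0 CPM) and lowest in control 4 (9.1 CPM). Kdr made up most of this sum, at 20.1 and 7.15 CPM in these 2 libraries. Pecam1 (0.573 and 1.42 CPM) and Cdh5 (0.287 and 0.482 CPM) went the other way, and Tek and Emcn were at or near 0 in both. Mast cell markers were highest in knock-in 5 (5.93 CPM) and lowest in control 1 (1.18 CPM). The 14 neutrophil markers summed to 198, 159, 208, 299.5 and 154 CPM in knock-in 1 to 5 and to 374, 215, 233, 353 and 176 CPM in control 1 to 5. Mmp8 and Csf3r, both also found in macrophages, made up most of this sum. The neutrophil-defining Ly6g was at most 0.154 CPM in the knock-in and 0.049 CPM in the control libraries, and the granule gene Elane at most 0.512 and 1.22 CPM. Mmp8 ran from 48.3 to 201.3 CPM in the knock-in and from 73.2 to 253.9 CPM in the control libraries, and was highest in the same 3 libraries. Csf3r did not follow that order, with 75.9 CPM in knock-in 4 against 71.5 to 108.3 CPM in the other knock-in libraries, and 77.0 and 88.8 CPM in controls 1 and 4 against 88.8 to 115.6 CPM in the other controls. S100a9, an abundant calcium-binding protein of neutrophils, ranged from 0.287 to 3.89 CPM in the knock-in and from 0.78 to 14.3 CPM in the control libraries. The macrophage marker sum was also highest there, but Lyz2 made up most of it (mean 25299.7 CPM). Csf1r was lowest of its genotype in knock-in 4 (1572.4 CPM) and control 1 (1338.7 CPM), and Adgre1 was lowest in knock-in 4 (807.7 CPM) and in controls 1 and 4 (859.9 and 904.9 CPM). The part of any cells of these marker types in the levels of the β2 integrins was not tested. The neutrophil marker score is the mean log2 CPM of the 9 of 14 neutrophil markers that passed the low-count filter, not their sum. A stromal score, used further below, was made likewise from 9 of 12 stromal markers. With the neutrophil marker score as a covariate, the log2 fold change was 0.01 for Itgam, 0.05 for Itgal, 0.56 for Itgax and 0.17 for Itgb2, and none passed (edgeR adjusted p = 0.987, 0.967, 0.229 and 0.625). The log2 value of Itga4 was 0.225 in that fit, against 0.325 without the covariate.

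**Figure D4:**
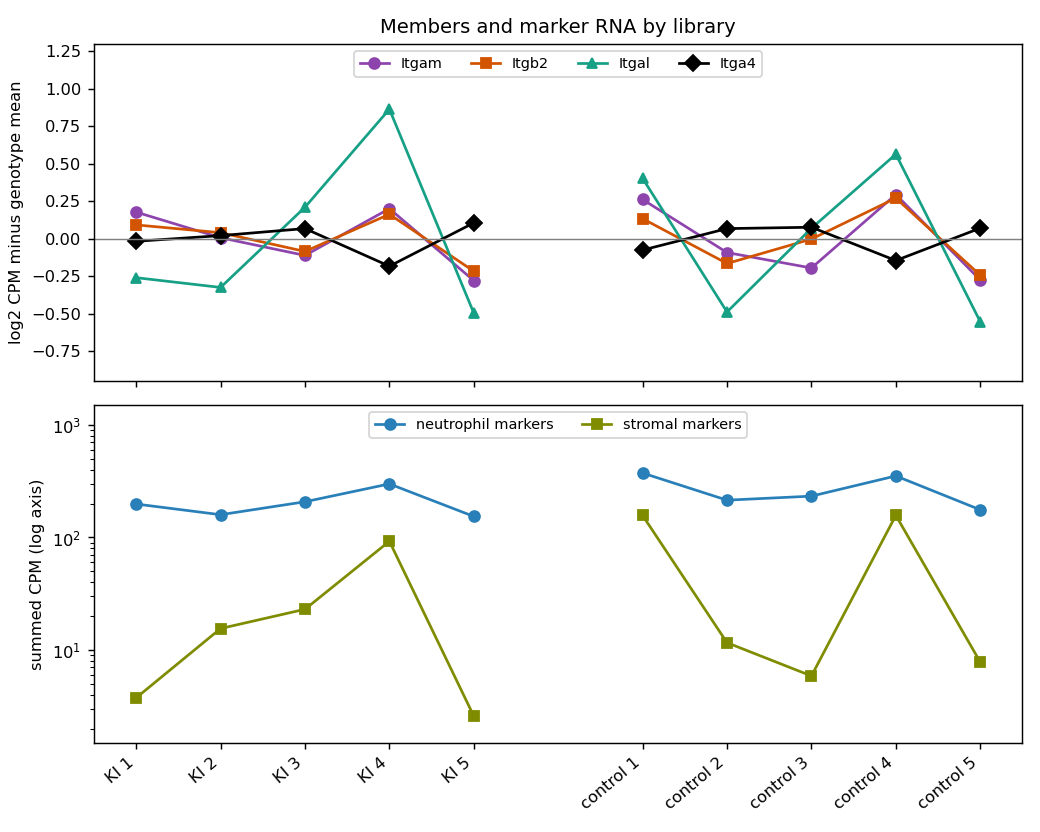
Upper panel, log2 CPM of Itgam, Itgb2, Itgal and Itga4 minus the mean of their genotype in each library, and lower panel, summed CPM of neutrophil and stromal markers (log axis). Knock-in 4, control 1 and control 4, with 92.6, 157 and 157 CPM of stromal markers, are high for the β2 integrins and low for Itga4.

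Within the β2 family, the share of αX RNA was larger in the knock-in libraries and that of αM smaller. Of the summed CPM per kb of Itgam, Itgax and Itgal, Itgam took 58.9 ± 5.17% in the knock-in and 66.5 ± 2.10% in the control libraries, and Itgax took 39.8 ± 4.98% and 31.8 ± 2.18%. Itgal took 1.27 ± 0.359% and 1.76 ± 0.369%. The ratio of Itgam to Itgax per length was 1.73, 1.52, 1.12, 1.29 and 1.89 in knock-in 1 to 5 and 2.25, 2.10, 1.81, 2.34 and 2.03 in control 1 to 5. Only knock-in 5 and control 3 crossed. These shares were computed after the genes were chosen and are not tested. The sum of the 3 α chains relative to Itgb2 differed by less than the spread between libraries, at 0.640 ± 0.062 in the knock-in and 0.643 ± 0.0376 in the controls.

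**Figure D5:**
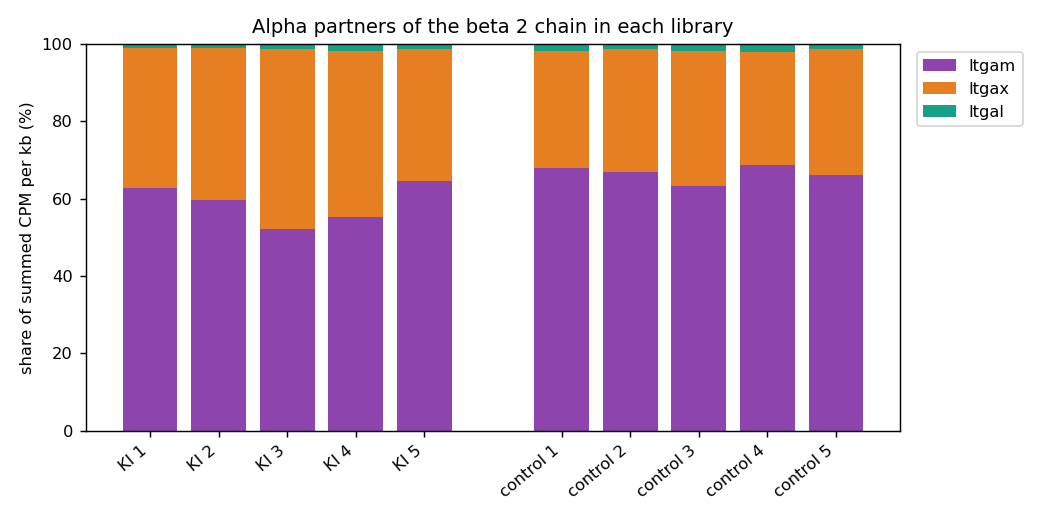
Share of Itgam, Itgax and Itgal in their summed CPM per kb in each library, knock-in left and control right. Itgax reaches 46.6% in knock-in 3 and 42.8% in knock-in 4, and lies between 29.3 and 34.9% in the controls.

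Among the β1 partners, Itga4 took 22.0 ± 2.33% of the summed CPM per kb of Itga4, Itga5 and Itga6 in the knock-in and 17.8 ± 2.03% in the control libraries. This uses the shift that Itga4 was chosen for, and the ranges overlapped, at 18.3 to 24.2% in the knock-in and 15.3 to 19.9% in the controls. Itga5 took 38.7 ± 1.83% in the knock-in and 38.4 ± 4.02% in the controls, and Itga6 took 39.3 ± 3.37% and 43.9 ± 5.79%. The 3 chains together came to 0.422 ± 0.0288 of Itgb1 in the knock-in and 0.435 ± 0.0277 in the control libraries.

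DESeq2, which has its own filter, tested 105 genes of the lists that follow, and edgeR 77. The other 17 integrin subunits included 9 that could be tested in edgeR and limma-voom, and 16 in DESeq2. edgeR called 0 of them, with 1 unadjusted p under 0.05, DESeq2 called 0 with 2, and limma-voom 0 with 1. The fold change was positive for 5 of 9, with a median log2 of 0.11. Itgad, the αD chain and a further β2 partner, was at 5.12, 4.29, 36.3, 43.4 and 4.21 CPM in knock-in 1 to 5 and at 9.41, 4.08, 7.85, 6.55 and 5.46 CPM in control 1 to 5. Its high libraries, knock-in 3 and 4, are those with the most Itgax, and its log2 fold change of 1.49 ± 0.78 did not pass (edgeR adjusted p = 0.813). It was 0.92 without knock-in 4 and 1.10 without knock-in 3. Itgb8, which pairs with αv to activate TGF-β, was at 1.34 ± 0.239 CPM in the knock-in and 0.782 ± 0.427 CPM in the control macrophages (adjusted p = 0.787).

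The machinery that switches integrins on was measured through 36 genes, of which 32 could be tested in edgeR and limma-voom, and 35 in DESeq2. edgeR called 0, with 1 unadjusted p under 0.05, DESeq2 called 0 with 3, and limma-voom 0 with 1, and 17 of the 32 were positive (median log2 0.005). Rap1a, a small GTPase that recruits talin to integrins, was at 147 ± 8.94 CPM in the knock-in and 134 ± 7.35 CPM in the control macrophages (log2 0.13 ± 0.058, edgeR adjusted p = 0.787). Its log2 difference was -0.05 in the deposited log2 values, the opposite sign. Its relative Rap1b was at 391 ± 14.9 and 366.5 ± 15 CPM, Syk, a kinase downstream of β2 integrins, at 382 ± 22.4 and 352 ± 17.5 CPM, and talin 1 (Tln1) at 1172 ± 130.9 and 1108 ± 129.9 CPM, in knock-in and control macrophages in that order (adjusted p = 0.811, 0.799 and 0.906).

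Of 25 integrin ligands, 10 could be tested in edgeR and limma-voom, and 21 in DESeq2. The 3 tools each called 0, with 0 unadjusted p under 0.05 each. The fold change was positive for 4 of 10 (median log2 -0.11). Spp1, or osteopontin, a ligand of α4β1 and of Cd44, had the highest level per length and was at 6033 ± 1272 CPM in the knock-in and 6913 ± 2915 CPM in the control macrophages (edgeR adjusted p = 0.929), and its log2 value was -0.20, but 0.035 without control 1 and 0.163 without the 3 stroma-rich libraries. Icam1, the ligand of LFA-1 and Mac-1, was at 79.8 ± 4.39 and 79.6 ± 8.43 CPM (adjusted p = 0.998). Complement C3, the source of iC3b, was at 37.4 ± 5.93 and 42.7 ± 9.05 CPM (adjusted p = 0.856), and F11r, or JAM-A, a ligand of αLβ2, at 0.826 ± 0.196 and 0.600 ± 0.107 CPM (adjusted p = 0.819), knock-in before control throughout.

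Of 24 genes around Cd44 and hyaluronan, 16 could be tested in edgeR and limma-voom, and 22 in DESeq2. edgeR called 0, with 1 unadjusted p under 0.05, DESeq2 called 0 with 2, and limma-voom 0 with 0, and 8 of 16 were positive (median log2 -0.03). Moesin (Msn), which ties the tail of Cd44 to actin, was at 862, 854, 803, 829.9 and 833 CPM in knock-in 1 to 5 and at 916, 893, 885, 872 and 888 CPM in control 1 to 5. Every knock-in library lay below every control, as for 0.588% of all tested genes, but the difference was small and did not pass (log2 -0.09 ± 0.044, edgeR adjusted p = 0.799). Stab2, a hyaluronan clearance receptor, was at 9.69 ± 2.04 CPM in the knock-in and 13.3 ± 3.56 CPM in the control macrophages (adjusted p = 0.787). Cd74, the invariant chain that signals together with Cd44, was at 1379 ± 386 and 1239 ± 529 CPM (adjusted p = 0.958), with a log2 value of 0.15, but -0.039 without control 1.

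Tetraspanins, which organise integrins in the membrane, numbered 11, of which 10 could be tested in edgeR and limma-voom, and 11 in DESeq2. edgeR, DESeq2 and limma-voom each called 0, with 0 unadjusted p under 0.05 each, and 3 of 10 were positive (median log2 -0.06). Cd9 was at 619 ± 46.2 CPM in the knock-in and 663 ± 73.9 CPM in the control macrophages and Cd63 at 1025 ± 65.0 and 1081 ± 79.3 CPM. Cd151, a partner of α6β1, was at 76.1 ± 4.60 CPM in the knock-in and 82.1 ± 8.30 CPM in the controls, and Tspan4 at 67.8 ± 5.48 and 62.3 ± 6.17 CPM (edgeR adjusted p from 0.837 to 0.875 for these 4 genes).

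The genes that followed Itga4 and Cd44 most closely were sought among 8689 genes with a mean log2 CPM of at least 3, by the Pearson r of log2 CPM over the 10 libraries after the mean of each genotype was removed. For Itga4 they were Anxa5 (r = 0.968), Exosc10 (0.961) and Tmem106a (0.960). Anxa5, or annexin A5, a phosphatidylserine-binding protein, was at 693 ± 58.5 CPM in the knock-in and 687 ± 47.0 CPM in the control macrophages. For Cd44 they were Uxs1 (r = 0.958), Ptp4a1 (0.938) and Rdh13 (0.904). The Ptp4a1 meant here is ENSMUSG00000117310, and a further Ensembl gene carries the same symbol, so its reads may be split. Uxs1, which makes UDP-xylose for glycosaminoglycan chains, was at 23.9 ± 0.705 and 23.5 ± 1.42 CPM in knock-in and control macrophages. Cd44 followed none of the other 9 genes closely, with r between -0.288 (Itga5) and 0.242 (Itgam). All these r describe libraries that share their depth and cell make-up and carry no test.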

How the data were processed

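The labels describe poly(A)+ RNA of cultured mouse macrophages, made into stranded libraries for 100-bp paired reads, with 20 M planned each. Per the submitters' processing notes, the tools were DESeq2 1.34.0, MultiQC and Salmon 1.6.0. GRCm39 and mm10 are both listed there, with no role. The main deposited table has a gene's estimated counts in each library, and these were rounded here. The other deposited table has log2 values, regularized-log by its name. No source used here gives the annotation or how transcripts were summed, and a change in transcript use between libraries could move either table.

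Genotype was fitted with edgeR 4.0.16 under R 4.3.3, using TMM scaling, the filterByExpr filter (minimum count 10, minimum total 15), robust dispersion and the quasi-likelihood F-test over all 10 libraries, with Benjamini-Hochberg adjustment over 12411 genes at 0.05. The SE is the fold change divided by the square root of F. log2 CPM used a prior count of 2. Alternatives used DESeq2 1.42.0 and limma 3.58.1. The fit was tested on simulated data. Coordinates and lengths (longest coding transcript) come from GENCODE M21, GRCm38, by gene ID.

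The genes and lists were chosen with earlier results of these data known. Named besides the 10 genes are, per list, the 2 tested genes with the smallest p and the 2 with the highest CPM per kb, the 3 genes most like Itga4 and Cd44, and Wdfy3. Libraries are labelled as separate mice. No library looked like a copy of another: the chi-square per gene between libraries of a genotype was at least 9 and at most 52.4.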

Additional observations from a re-analysis of the deposited data

How the results depend on the processing

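The count of genes called over the whole table was 10, and 48 in DESeq2, 38 without knock-in 4, control 1 and control 4 (stroma-rich, chosen after the data were seen, as were both marker covariates), 6 to 23 when 1 library was left out (6 without control 2 or knock-in 1, 2 or 3, and 23 without knock-in 4) and 8 to 12 in the other fits. None of the 8 genes not picked by their shift was called in any of 22 alternatives. The fold change of Itga4 stayed between 0.22 and 0.365 over these alternatives and that of Cd44 between 0.149 and 0.275, in log2. The lowest values, 0.22 and 0.149, are those of the deposited log2 values, and leaving out 1 library gave 0.292 to 0.365 for Itga4 and 0.205 to 0.254 for Cd44. With the neutrophil score as a covariate, Itga4 fell to 0.225, nearly as low, while Cd44 was at 0.237. With the stromal score they were at 0.28 and 0.234.

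With the replicate number as a block, 12 genes were called and 0 of the 8. In that edgeR fit 3 of the 8 had an unadjusted p under 0.05, as did 931 of 12411 tested genes. With the neutrophil score as a covariate 2 of the 8 had one, as did 948 of the tested genes. Same-numbered libraries deviated together with r of -0.2, 0.027, 0.039, 0.509 and 0.251, and 2 of 5 knock-in and 2 of 5 control libraries correlated best with their own number, so the numbers were not taken to pair mice.

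Signs turned as follows, none with a call, and the cause was not tested. With the neutrophil score as a covariate the log2 value became 0.011 for Itgam, 0.048 for Itgal, 0.052 for Itga6, -0.066 for Itgb7, 0.165 for Itgb2, 0.284 for Spp1, -0.311 for Cd74, -0.057 for Icam1 and 0.022 for Cd9. Without the 3 stroma-rich libraries it became -0.007 for Itga5, 0.085 for Itgb2, 0.163 for Spp1, -0.096 for Icam1 and -0.09 for Cd74. With the stromal score it became 0.055 for Itgb2, 0.09 for Spp1, -0.026 for Icam1 and -0.018 for Cd74. Rap1a was -0.045 in the deposited log2 values, and Icam1 was -0.001 without a low-count filter. Leaving out 1 library gave -0.074 to 0.058 for Itgb2, -0.052 to 0.015 for Itgb5, -0.045 to 0.04 for Itgav, -0.334 to 0.035 for Spp1, -0.046 to 0.043 for Icam1 and -0.039 to 0.304 for Cd74. Depth limits Itgb7 among the 10 genes most, and F11r and Itgb8 among the others named.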

Other observations

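Itgb7 ranked the libraries differently in the 2 deposited tables. Knock-in 1 and 2 were alike in CPM (9.56 and 9.30) but at 7.36 and 7.08 in the deposited log2 values. Control 4 had 4.54 CPM, below control 2 (5.98) and control 3 (6.12), but its regularized-log value was 7.03, above theirs at 6.93 and 6.89. Over the 10 libraries the scales had a Pearson r of 0.841 for Itgb7 and 0.905 for Itgb1, and at least 0.970 for the other 8 genes, with a median of 0.923 over 11674 genes. Control 1 gave Itgb1 its highest CPM of all libraries (642), yet its deposited log2 value of 13.57 was below that of knock-in 5 (13.61, at 616.5 CPM).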
